A study of Homo sapiens with 16 samples.

Results

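Neurons and endocrine cells express a set of genes for vesicle release, axonal filaments and secretory granules that blood cells use little or not at all. The 34 such genes described here were given as a list, by their annotated gene symbols, and each was read by 1 probe set, the one whose mean over the 16 arrays was highest. All 34 were measured, among 11963 genes tested on the array. The arrays were Affymetrix HG-U133A GeneChips, on which short oligonucleotides near the 3' end of a transcript read its level. They came from 8 human cell lines, each measured once treated and once untreated. FE-PD and JB6, together with SU-DHL-1 and Karpas 299, derive from anaplastic large cell lymphoma (ALCL), a CD30-positive T-cell lymphoma. CCRF-CEM and Jurkat, together with Molt-3 and Molt-4, are labelled T-cell lines and derive from T-cell leukaemia. The 4 groups were therefore treated ALCL, untreated ALCL, treated T-cell and untreated T-cell lines, with n = 4 arrays each. Treated cells received 1 µM 5-aza-2'-deoxycytidine for 6 days and 625 nM trichostatin A during the last 24 hours. The labels call the other arrays untreated and name no vehicle. Both drugs were given together, so their separate effects cannot be told apart. A replicate is a different line with 1 array per condition, so the spread given here is that between lines. Within a culture, more cells expressing a gene and more RNA per cell cannot be told apart.

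In cells other than neurons the repressor REST binds a DNA element near many of these genes and recruits RCOR1, histone deacetylases and histone methyltransferases. Methylation of CpG dinucleotides (a C followed by a G) in promoters is another known layer of silencing. 5-Aza-2'-deoxycytidine traps DNA methyltransferases so that methylation is lost as cells divide, and trichostatin A blocks histone deacetylases.

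Because the treatment acts on methylated CpG sites, the 250 bases before the annotated start are shown for 4 of the genes, with every CG in capitals (RefSeq, GRCh38.p14, 5′ to 3′ on the gene's strand). NPTX2 (chr7:98617035-98617284, plus strand, 34 CG) and UCHL1 (chr4:41256678-41256927, plus strand, 20 CG) rose in both cell types. BEX1 (chrX:103064172-103064421, minus strand, 19 CG) differed most between untreated lines. RTN1 (chr14:59610140-59610389, minus strand, 1 CG) was called in neither cell type.
NPTX2: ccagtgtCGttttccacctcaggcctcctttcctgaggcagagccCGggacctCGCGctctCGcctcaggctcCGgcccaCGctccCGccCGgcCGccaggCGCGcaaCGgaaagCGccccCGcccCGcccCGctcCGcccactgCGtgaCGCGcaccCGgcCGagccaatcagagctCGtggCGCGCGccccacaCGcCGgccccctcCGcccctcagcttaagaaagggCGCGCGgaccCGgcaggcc
UCHL1: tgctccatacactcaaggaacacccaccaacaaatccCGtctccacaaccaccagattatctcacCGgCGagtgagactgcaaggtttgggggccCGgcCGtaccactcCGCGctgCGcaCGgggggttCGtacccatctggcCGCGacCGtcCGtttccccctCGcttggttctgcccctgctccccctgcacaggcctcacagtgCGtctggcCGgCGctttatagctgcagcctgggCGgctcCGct
BEX1: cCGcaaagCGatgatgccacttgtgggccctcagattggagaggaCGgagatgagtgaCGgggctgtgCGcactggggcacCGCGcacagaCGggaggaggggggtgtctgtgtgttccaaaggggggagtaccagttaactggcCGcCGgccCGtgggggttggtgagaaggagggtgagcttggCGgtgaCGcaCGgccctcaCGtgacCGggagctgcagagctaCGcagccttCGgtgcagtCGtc
RTN1: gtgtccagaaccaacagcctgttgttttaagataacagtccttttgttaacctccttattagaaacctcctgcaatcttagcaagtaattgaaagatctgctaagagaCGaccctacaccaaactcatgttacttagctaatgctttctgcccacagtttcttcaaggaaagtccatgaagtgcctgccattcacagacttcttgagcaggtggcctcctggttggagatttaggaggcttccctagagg
The NPTX2 window is dense in CG pairs except near its upstream end, whereas the RTN1 window holds a single one.

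Markers of the cell types were read against the labels, from lists chosen with earlier results of these data known. Of 18 measured T-cell genes, 8 were lower in untreated ALCL lines than in untreated T-cell lines, 0 higher and 10 not called. Of all genes, 5.58% were lower and 3.18% higher in untreated ALCL lines. The T-cell receptor chain CD3E averaged 7.62 ± 0.32 on the log2 scale in untreated ALCL lines and 10.77 ± 0.14 in untreated T-cell lines (SD, n = 4 each). Of 12 ALCL genes, 9 were higher in untreated ALCL lines and 1 lower, and TNFRSF8, which encodes CD30, averaged 11.48 ± 0.53 there against 7.82 ± 0.46 in untreated T-cell lines. Treated arrays differed from untreated ones as arrays. Treated arrays had the smaller SD over all values in 8 of 8 lines, by 0.02 to 0.30. The 28S ribosomal control rose by more than 3 log2 units in 5 lines, namely 3 ALCL lines (all but Karpas 299) and 2 T-cell lines (Molt-3 and Molt-4). The change in the hybridisation spikes lay between -0.35 and 1.35.

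Treatment raised 18 of the 34 neuronal genes in T-cell lines and 10 in ALCL lines, and lowered 0 in either. A gene is called when its adjusted p is below 0.05 over all 11963 genes. In T-cell lines the 18 genes were 52.9% of the list, against 21.7% of all genes called higher and 20.2% called lower. In ALCL lines the 10 genes were 29.4% of the list, against 8.04% of all genes called higher and 13.4% called lower. The median change of the list was 0.43 log2 units in T-cell lines, where the median over all genes was 0.14, and 0.30 in ALCL lines, where it was 0.09. At an unadjusted p below 0.05, limma still found 0 neuronal genes lower in either cell type, and 22 higher in T-cell lines and 17 in ALCL lines. At that threshold 29.6% of all genes were higher in T-cell lines and 17% in ALCL lines, while 23.3% and 19.4% were lower. The mean change was above 0 for 33 of 34 genes in T-cell lines, BEX1 being the exception, and for 34 of 34 in ALCL lines. The medians of all genes, 0.14 and 0.09, were also above 0. These directions hold for the values as deposited. Centring each array on its hybridisation spikes turned the list's median to -0.25 in T-cell lines and -0.30 in ALCL lines, with 1 neuronal gene called higher in each. That centring moved the median of all genes to -0.54 and -0.52. It shifts every gene of an array alike, so the gap between the list's median and that of all genes, 0.29 and 0.22, is the same by construction.

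**Figure D1:**
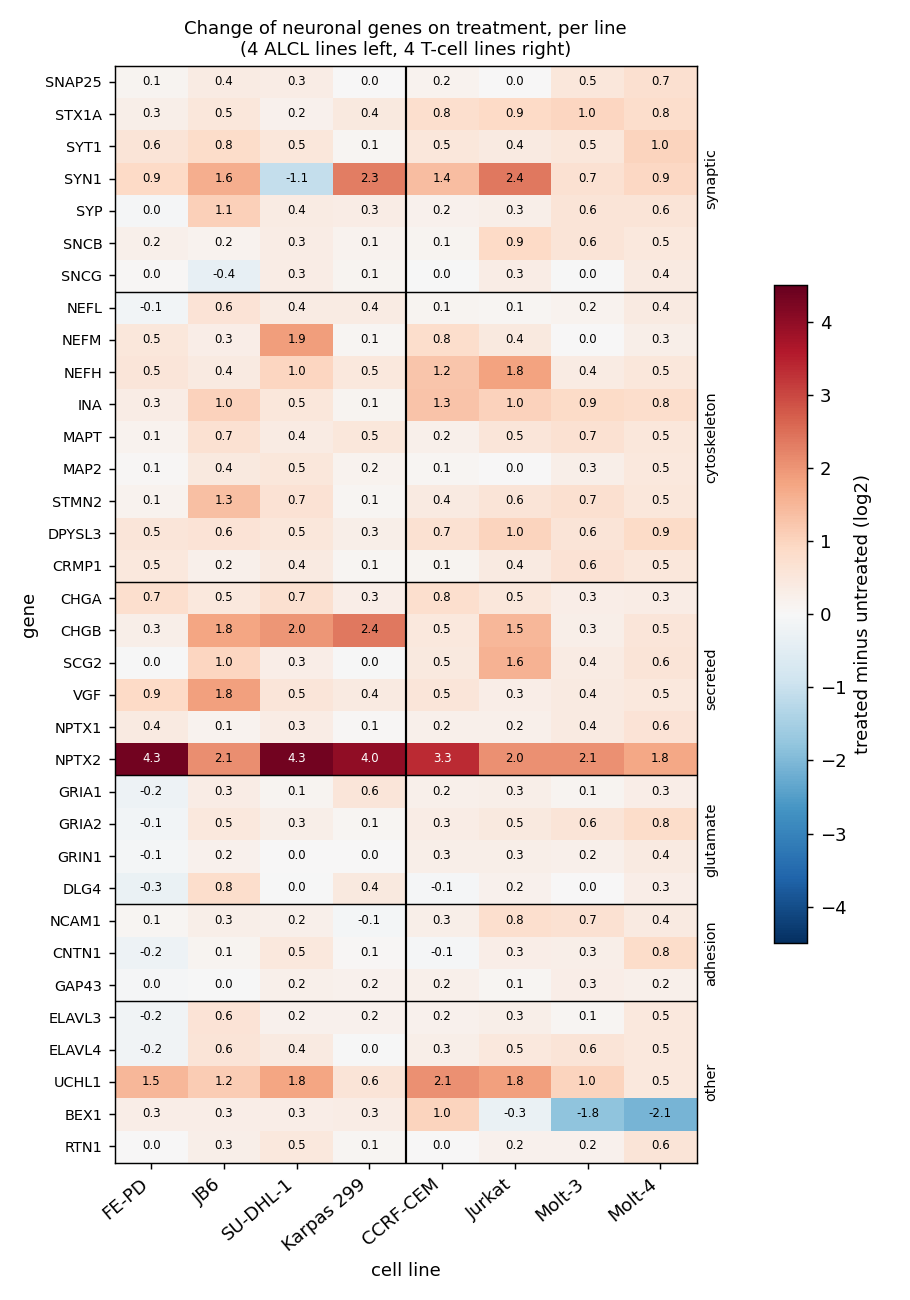
Change on treatment (treated minus untreated, log2, colour and printed value) of 34 neuronal genes (rows, grouped by role) in 8 cell lines (columns, ALCL lines left of T-cell lines). NPTX2 rose by 1.76 to 4.35 in all 8 lines, while BEX1 had values of -2.08 in Molt-4 and -1.81 in Molt-3; values are as deposited, and centring on the hybridisation spikes lowers those of both cell types and turns the list's median below 0.

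The list moved in every line by more than the median of all genes, which were not matched to it for level. Its median change was 0.15 in FE-PD, 0.50 in JB6, 0.37 in SU-DHL-1 and 0.17 in Karpas 299, where the median of all genes was -0.05, 0.12, 0.13 and 0.07. It was 0.27 in CCRF-CEM, 0.42 in Jurkat, 0.41 in Molt-3 and 0.50 in Molt-4, beside 0.07, 0.11, 0.15 and 0.17 for all genes. JB6 and Molt-4, with the largest list medians, also had the largest falls in array SD (0.23 and 0.30) and the 28S rise, and the part of these in the result was not tested. Within T-cell lines the list median was 0.51 in the 2 lines with the 28S rise and 0.40 in the 2 without it, and within ALCL lines it was 0.33 in the 3 lines with it and 0.17 in Karpas 299, the 1 line without it. Single lines moved these counts. Without Jurkat 11 neuronal genes were higher in T-cell lines, and without Molt-3 or Molt-4 there were 9. In ALCL lines there were 5 without JB6, 5 without SU-DHL-1 (4 of the 10, and SYN1, newly called), and 6 without Molt-3, which enters through the shared estimate of the spread.

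The secreted and granule proteins held the largest change of the list in each cell type. Of 6 genes, 4 were higher in T-cell lines (CHGA, SCG2, NPTX1 and NPTX2) and 4 in ALCL lines (CHGA, CHGB, VGF and NPTX2), and 0 were lower. Both shares were 66.7%, against 21.7% and 8.04% of all genes called higher. NPTX2 encodes a secreted pentraxin that clusters AMPA receptors at synapses. It measured 10.02, 7.79, 9.65 and 9.80 in treated ALCL lines, against 5.67, 5.70, 5.32 and 5.81 in untreated ALCL lines, with the lines in the order named at the start, here and below. The T-cell values were 9.12, 7.50, 8.10 and 8.02 in treated T-cell lines, against 5.77, 5.45, 6.03 and 6.26 in untreated T-cell lines. All 8 treated arrays stood above all 8 untreated ones, and JB6 was the lowest of the treated ALCL lines. The change was 3.69 ± 0.37 in ALCL lines (12.9-fold, adjusted p = 0.000244) and 2.30 ± 0.37 in T-cell lines (4.94-fold, adjusted p = 0.00133). It was the 1 neuronal gene whose call held in all 15 alternatives in both cell types. The effect in ALCL lines exceeded that in T-cell lines by 1.38 ± 0.52 (adjusted p = 0.282), a difference that was called only without JB6 (1.92, adjusted p = 0.0466).

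CHGB and CHGA encode chromogranins, which form the matrix of dense-core granules. CHGB measured 6.82, 8.26, 7.82 and 8.88 in treated ALCL lines, against 6.54, 6.49, 5.84 and 6.51 in untreated ALCL lines. The T-cell lines gave 6.28, 7.73, 6.22 and 6.48 in treated T-cell lines, against 5.80, 6.25, 5.96 and 5.95 in untreated T-cell lines. The groups did not overlap in ALCL lines, where FE-PD changed least, and in T-cell lines Jurkat had by far the largest change. CHGB rose by 1.60 ± 0.31 in ALCL lines (adjusted p = 0.00552), and its change of 0.69 ± 0.31 in T-cell lines missed the threshold (adjusted p = 0.0938). The difference of 0.91 ± 0.44 between the cell types was not called (adjusted p = 0.425). CHGA measured 6.79, 6.02, 6.53 and 5.93 in treated ALCL lines, against 6.04, 5.53, 5.80 and 5.65 in untreated ALCL lines. Its T-cell values were 6.48, 5.95, 5.92 and 6.09 in treated T-cell lines, against 5.72, 5.45, 5.61 and 5.76 in untreated T-cell lines, and every line was higher on treatment. CHGA rose by 0.56 ± 0.13 in ALCL lines (adjusted p = 0.0134) and by 0.48 ± 0.13 in T-cell lines (adjusted p = 0.0173). The ALCL call was lost without SU-DHL-1 (adjusted p = 0.0668), and the T-cell call without CCRF-CEM or Jurkat (adjusted p of 0.0658 and 0.0503). Without the line as a block both were lost (adjusted p of 0.0714 and 0.0712), and with spike centring the values were -0.04 and -0.21.

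VGF, the precursor of several neuropeptides, rose in ALCL lines. It measured 8.39, 9.39, 8.92 and 7.42 in treated ALCL lines, against 7.49, 7.56, 8.37 and 7.02 in untreated ALCL lines. Its T-cell values were 7.52, 7.61, 7.48 and 7.48 in treated T-cell lines, against 6.98, 7.30, 7.08 and 7.01 in untreated T-cell lines. JB6 had the highest treated value and the largest change of the 8 lines. The change was 0.92 ± 0.20 in ALCL lines (adjusted p = 0.0111, and 0.0905 without the line block) and 0.43 ± 0.20 in T-cell lines (adjusted p = 0.11). SCG2 encodes secretogranin II, another granule protein. It measured 5.83, 7.17, 5.67 and 5.83 in treated T-cell lines, against 5.38, 5.61, 5.30 and 5.25 in untreated T-cell lines. Jurkat stood above the other 3 treated T-cell lines, and treated and untreated T-cell values did not overlap. SCG2 rose by 0.74 ± 0.22 in T-cell lines (adjusted p = 0.0241), a call lost without Jurkat or Molt-4 (adjusted p of 0.0631 to 0.095) and without the line block (0.0525). The SCG2 call was also lost with quantile normalization (adjusted p = 0.0825) and spike centring (0.925). Its ALCL values were 5.51, 6.12, 5.54 and 5.24 in treated ALCL lines, against 5.52, 5.16, 5.24 and 5.27 in untreated ALCL lines, with a change of 0.31 ± 0.22 (adjusted p = 0.332) that was largest in JB6. NPTX1, a pentraxin like NPTX2, measured 6.64, 6.56, 6.76 and 6.98 in treated T-cell lines, against 6.42, 6.33, 6.35 and 6.36 in untreated T-cell lines. It rose by 0.37 ± 0.12 there (adjusted p = 0.035), with no overlap, but the call was lost without Jurkat, Molt-3 or Molt-4 (adjusted p of 0.0548 to 0.159), and spike centring gave -0.31. NPTX1 measured 6.99, 6.58, 6.79 and 6.52 in treated ALCL lines, against 6.57, 6.44, 6.47 and 6.46 in untreated ALCL lines, a change of 0.24 ± 0.12 that was not called.

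**Figure D2:**
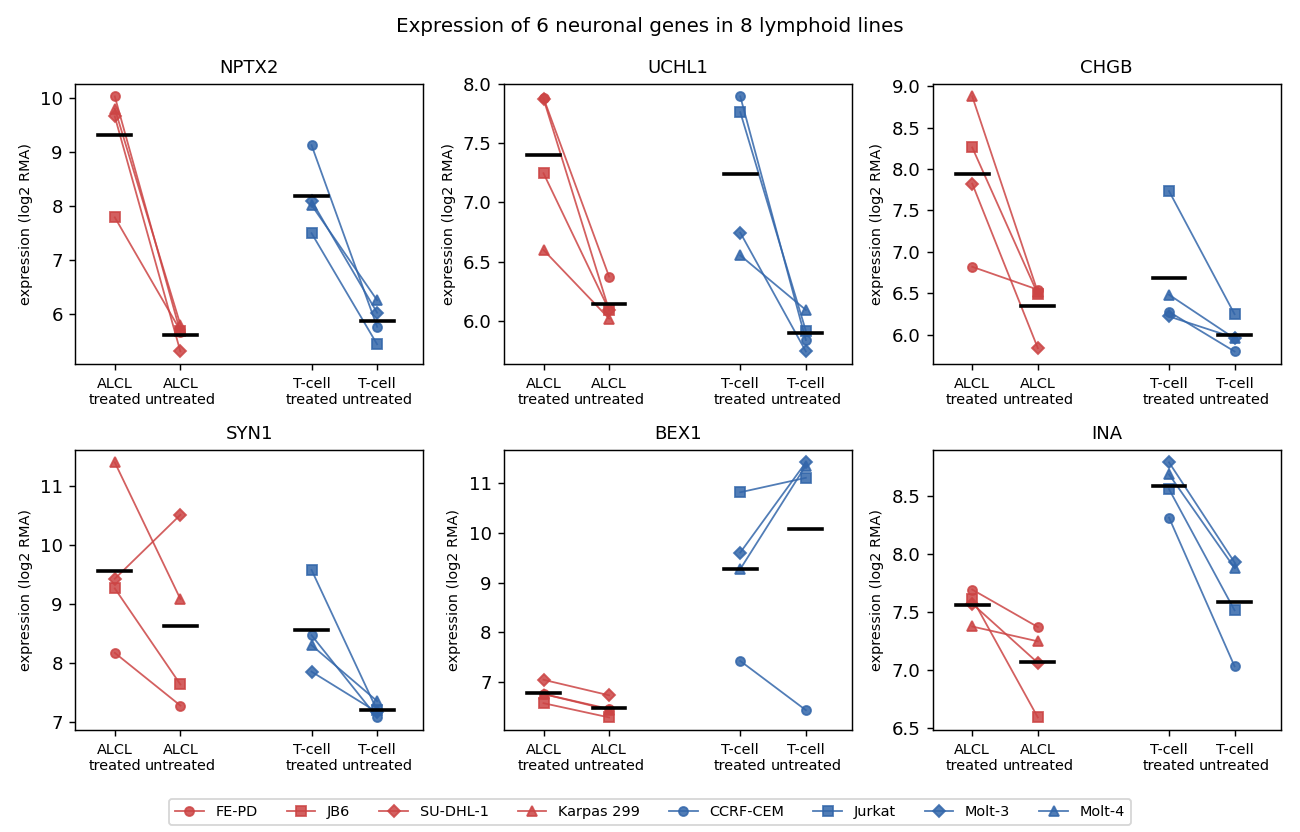
Expression (log2 RMA values) of 6 neuronal genes, 1 point per array, with lines joining the treated and untreated array of a cell line and black bars at the group means (n = 4). NPTX2 treated values lie between 7.50 and 10.02 and untreated ones between 5.32 and 6.26, while SYN1 in SU-DHL-1 and BEX1 in Jurkat, Molt-3 and Molt-4 stand lower on the treated array; with spike centring only NPTX2 was called higher.

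Of 7 synaptic vesicle and membrane fusion genes, 4 were higher in T-cell lines (STX1A, SYT1, SYN1 and SNCB) and 2 in ALCL lines (STX1A and SYT1). That is 57.1% and 28.6%, against 21.7% and 8.04% of all genes. SYN1 encodes synapsin I, which tethers vesicles to the cytoskeleton. It measured 8.18, 9.27, 9.43 and 11.41 in treated ALCL lines, against 7.28, 7.64, 10.52 and 9.09 in untreated ALCL lines. The T-cell arrays gave 8.48, 9.58, 7.86 and 8.31 in treated T-cell lines, against 7.08, 7.20, 7.17 and 7.36 in untreated T-cell lines. SU-DHL-1 and Karpas 299 were high before treatment, and SU-DHL-1 was the 1 line of 8 with a lower value on the treated array. SYN1 rose by 1.35 ± 0.46 in T-cell lines (adjusted p = 0.0394), and its change of 0.94 ± 0.46 in ALCL lines was not called (adjusted p = 0.169). The T-cell call was lost without any 1 of the 4 T-cell lines (adjusted p of 0.0654 to 0.146) and without the line block (0.136). Without SU-DHL-1 the change in ALCL lines was 1.61 (adjusted p = 0.016).

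STX1A encodes syntaxin 1A, a SNARE of the presynaptic membrane. It measured 8.14, 8.25, 8.18 and 8.10 in treated T-cell lines, against 7.37, 7.36, 7.20 and 7.30 in untreated T-cell lines. Every treated T-cell line stood above every untreated one, and the 4 changes lay between 0.77 and 0.98. STX1A rose by 0.86 ± 0.11 there (adjusted p = 0.000467). Its ALCL values were 7.92, 8.09, 8.70 and 7.99 in treated ALCL lines, against 7.66, 7.59, 8.50 and 7.56 in untreated ALCL lines, with SU-DHL-1 high in both conditions. The ALCL change of 0.35 ± 0.11 was called by a narrow margin (adjusted p = 0.0495) that was lost when any 1 of the 8 lines was left out (adjusted p of 0.0635 to 0.15), and spike centring gave -0.26. SYT1 encodes synaptotagmin 1, the calcium sensor of vesicle release. It measured 6.73, 6.86, 6.56 and 6.11 in treated ALCL lines, against 6.14, 6.04, 6.06 and 6.02 in untreated ALCL lines. Its T-cell values were 6.83, 6.64, 6.52 and 7.33 in treated T-cell lines, against 6.33, 6.25, 6.02 and 6.32 in untreated T-cell lines, with Molt-4 changing most. SYT1 rose by 0.50 ± 0.15 in ALCL lines (adjusted p = 0.0405) and 0.60 ± 0.15 in T-cell lines (adjusted p = 0.0122). The T-cell call was lost without Molt-4 (adjusted p = 0.0683), and the ALCL call without FE-PD, JB6, SU-DHL-1, CCRF-CEM or Molt-3 (adjusted p of 0.0537 to 0.162). Its other probe set changed by 0.08 ± 0.10 in ALCL and 0.10 ± 0.10 in T-cell lines and was not called, and spike centring gave -0.10 and -0.08 for the one used. SNCB encodes beta-synuclein and measured 6.55, 7.14, 6.89 and 6.83 in treated T-cell lines, against 6.43, 6.24, 6.31 and 6.35 in untreated T-cell lines. It rose by 0.52 ± 0.14 there (adjusted p = 0.0142), most in Jurkat, and the call was lost without Jurkat or Molt-3 (adjusted p of 0.0611 to 0.0648), while spike centring gave -0.16. SNCB measured 6.75, 6.63, 6.67 and 6.51 in treated ALCL lines, against 6.52, 6.46, 6.36 and 6.36 in untreated ALCL lines, and its change of 0.22 ± 0.14 was not called. The other synaptic genes, SNAP25 (another SNARE), SYP (synaptophysin) and SNCG (gamma-synuclein), were called in neither cell type on the probe sets used, with changes from 0.03 to 0.44. SNAP25 rose by 0.49 ± 0.12 in T-cell lines on its other probe set (adjusted p = 0.011 over all probe sets), and SYP was called higher there when T-cell lines were fitted alone (adjusted p = 0.0364).

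The axonal cytoskeleton had 6 of 9 genes higher in T-cell lines (NEFH, INA, MAPT, STMN2, DPYSL3 and CRMP1) and 3 in ALCL lines (INA, MAPT and DPYSL3). These shares of 66.7% and 33.3% stood beside 21.7% and 8.04% of all genes. INA encodes alpha-internexin, a filament protein of axons. It measured 7.69, 7.61, 7.57 and 7.37 in treated ALCL lines, against 7.37, 6.59, 7.06 and 7.25 in untreated ALCL lines. Its T-cell values were 8.31, 8.55, 8.79 and 8.68 in treated T-cell lines, against 7.03, 7.51, 7.93 and 7.88 in untreated T-cell lines. Treated and untreated values did not overlap in either cell type, and all 4 treated T-cell lines stood above all 4 treated ALCL lines. INA rose by 1.00 ± 0.16 in T-cell lines (adjusted p = 0.00126) and by 0.49 ± 0.16 in ALCL lines (adjusted p = 0.0483). The ALCL call was lost without any line but Karpas 299 (adjusted p of 0.0535 to 0.194), and spike centring gave -0.11 there.

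NEFH, the heavy neurofilament chain, measured 7.17, 7.35, 7.31 and 7.52 in treated T-cell lines, against 5.93, 5.55, 6.93 and 7.03 in untreated T-cell lines. Jurkat and CCRF-CEM started lowest and changed most, and treated T-cell values lay above all untreated ones. NEFH rose by 0.98 ± 0.22 there (adjusted p = 0.00732), a call that held without each line but not with spike centring (adjusted p = 0.632). Its other probe set changed by 0.90 ± 0.52 in T-cell lines (adjusted p = 0.186 over all probe sets). That probe set rose by 2.93 in CCRF-CEM and 1.68 in Jurkat, and changed by -0.23 in Molt-3 and -0.79 in Molt-4. NEFH measured 6.99, 6.25, 6.72 and 6.55 in treated ALCL lines, against 6.45, 5.85, 5.75 and 6.06 in untreated ALCL lines, a change of 0.60 ± 0.22 that missed the threshold (adjusted p = 0.0793). DPYSL3 and CRMP1 belong to the collapsin response mediators, which steer growing axons. DPYSL3 measured 6.79, 7.23, 6.46 and 6.42 in treated ALCL lines, against 6.24, 6.61, 5.96 and 6.17 in untreated ALCL lines. Its T-cell values were 6.69, 6.76, 6.43 and 6.96 in treated T-cell lines, against 5.99, 5.75, 5.84 and 6.09 in untreated T-cell lines, without overlap. DPYSL3 rose by 0.48 ± 0.12 in ALCL lines (adjusted p = 0.0194), lost without JB6 or SU-DHL-1 (adjusted p of 0.0703 to 0.0718), and by 0.79 ± 0.12 in T-cell lines (adjusted p = 0.00104), while spike centring gave -0.12 in ALCL lines. CRMP1 measured 7.73, 7.98, 8.10 and 8.03 in treated T-cell lines, against 7.59, 7.57, 7.45 and 7.51 in untreated T-cell lines. It rose by 0.43 ± 0.13 (adjusted p = 0.022), lost without Jurkat, Molt-3 or Molt-4 (adjusted p of 0.0555 to 0.116), and spike centring gave -0.25. CRMP1 measured 8.28, 8.05, 7.84 and 7.89 in treated ALCL lines, against 7.81, 7.81, 7.45 and 7.80 in untreated ALCL lines, again without overlap, but the change of 0.30 ± 0.13 was not called (adjusted p = 0.119).

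MAPT encodes tau, which binds axonal microtubules. It measured 7.94, 8.29, 8.63 and 7.81 in treated ALCL lines, against 7.80, 7.59, 8.25 and 7.31 in untreated ALCL lines. The T-cell arrays gave 7.62, 8.20, 7.94 and 7.84 in treated T-cell lines, against 7.39, 7.65, 7.25 and 7.34 in untreated T-cell lines. Each line was higher on treatment, though treated and untreated values overlapped in both cell types. MAPT rose by 0.43 ± 0.13 in ALCL lines (adjusted p = 0.041) and 0.49 ± 0.13 in T-cell lines (adjusted p = 0.015). The ALCL call was lost without JB6, SU-DHL-1, Karpas 299, Jurkat, Molt-3 or Molt-4 (adjusted p of 0.0558 to 0.153) and the T-cell call without Molt-3 or Molt-4 (0.0566 to 0.0831), and spike centring gave -0.18 and -0.19. A different probe set of MAPT rose by 1.43 ± 0.27 in T-cell lines (adjusted p = 0.00407). STMN2 encodes a stathmin of growth cones that destabilizes microtubules. It measured 5.16, 5.20, 5.33 and 5.35 in treated T-cell lines, against 4.76, 4.62, 4.61 and 4.84 in untreated T-cell lines. It rose by 0.55 ± 0.19 there (adjusted p = 0.0424), a call lost without SU-DHL-1, CCRF-CEM, Jurkat, Molt-3 or Molt-4 (adjusted p of 0.0553 to 0.147) and in the mean of its probe sets (0.0763), and spike centring gave -0.13. STMN2 measured 4.92, 5.94, 5.34 and 4.92 in treated ALCL lines, against 4.77, 4.60, 4.67 and 4.84 in untreated ALCL lines, led by JB6, and its change of 0.56 ± 0.19 missed the threshold (adjusted p = 0.0636). The light and medium neurofilament chains NEFL and NEFM and the dendritic protein MAP2 were not called. The largest single change among them was 1.87 for NEFM in SU-DHL-1. One further NEFL probe set rose by 1.15 ± 0.35 in ALCL lines (adjusted p = 0.049), with changes of 2.23 in FE-PD and 2.00 in SU-DHL-1 against 0.02 in Karpas 299.

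**Figure D3:**
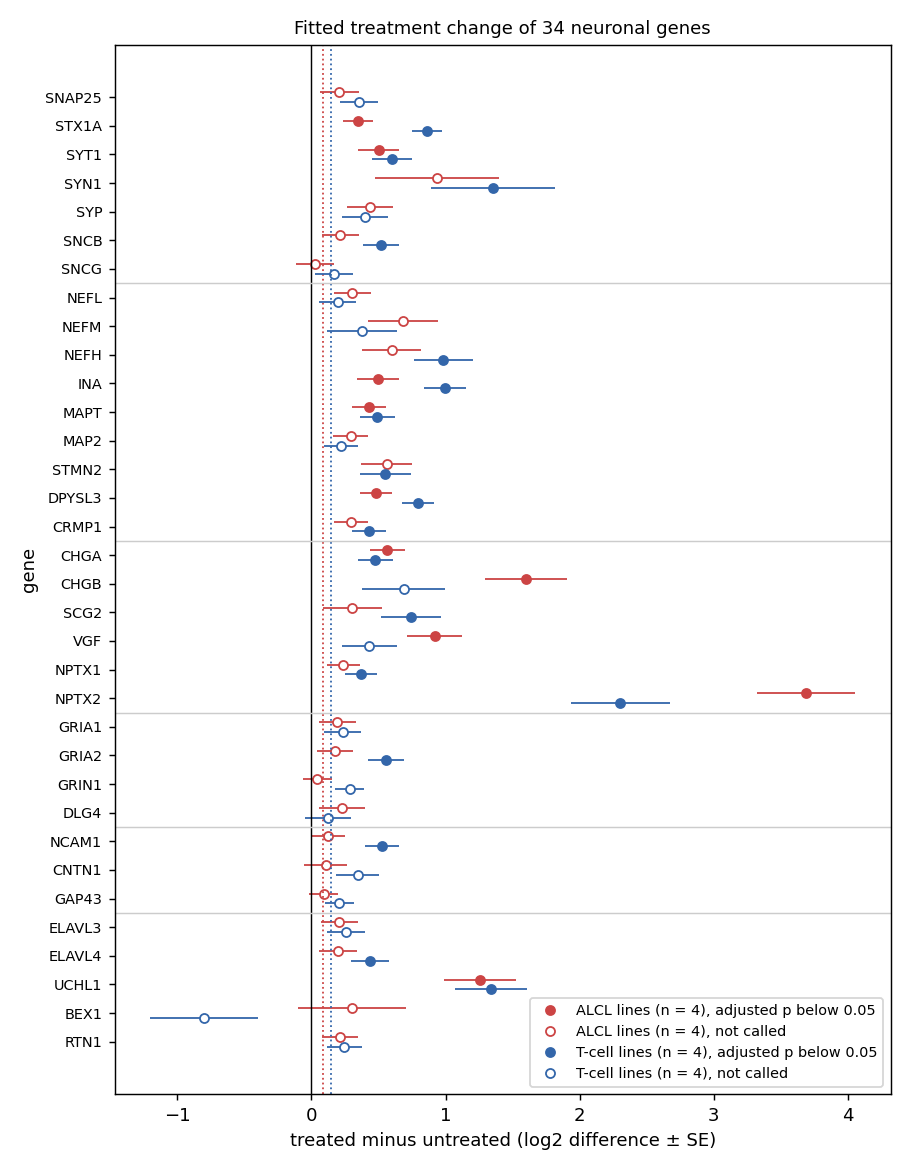
Fitted change on treatment (log2 difference ± SE, n = 4 lines per cell type) of 34 neuronal genes, grouped by role from synaptic genes at the top, with filled points at an adjusted p below 0.05 and dotted lines at the median of all genes (0.09 in ALCL lines, 0.14 in T-cell lines). Only BEX1 in T-cell lines lies left of 0 in the values as deposited; with spike centring 1 gene in each cell type is called higher.

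Of 4 glutamate receptor genes (the AMPA receptor subunits GRIA1 and GRIA2, the NMDA receptor subunit GRIN1 and the scaffold DLG4), 1 was higher in T-cell lines and 0 in ALCL lines. The shares of all genes called higher were 21.7% and 8.04%. GRIA2 measured 4.69, 4.76, 4.87 and 5.18 in treated T-cell lines, against 4.34, 4.30, 4.27 and 4.36 in untreated T-cell lines. It rose by 0.56 ± 0.13 there without overlap (adjusted p = 0.0105), lost without Molt-3 or Molt-4 (adjusted p of 0.0507 to 0.0589), and spike centring gave -0.12. GRIA2 measured 4.32, 5.18, 4.55 and 4.55 in treated ALCL lines, against 4.43, 4.69, 4.30 and 4.47 in untreated ALCL lines, with JB6 the highest treated line, and its change of 0.18 ± 0.13 was not called. GRIN1 changed by 0.29 ± 0.11 in T-cell lines, which missed the threshold (adjusted p = 0.0547), while 3 of its 4 other probe sets were called higher there, by 0.41 to 0.45 (adjusted p of 0.0353 to 0.0459 over all probe sets). On the probe set used, JB6 stood at 8.44 treated and 8.24 untreated, about 1 log2 unit above the other ALCL lines, but on 3 of the 4 others JB6 was the lowest ALCL line in both conditions. An unused DLG4 probe set rose by 0.96 ± 0.23 in T-cell lines (adjusted p = 0.011), while the one used changed by 0.12 ± 0.17.

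Of 3 adhesion and growth cone genes (NCAM1, CNTN1 and GAP43), 1 was higher in T-cell lines and 0 in ALCL lines, against 21.7% and 8.04% of all genes. NCAM1 encodes a neural adhesion molecule that is also the CD56 antigen of natural killer cells. It measured 6.71, 6.88, 6.92 and 6.78 in treated T-cell lines, against 6.43, 6.12, 6.24 and 6.39 in untreated T-cell lines. Its ALCL values were 6.76, 6.49, 6.70 and 6.41 in treated ALCL lines, against 6.69, 6.23, 6.47 and 6.48 in untreated ALCL lines. T-cell values did not overlap, and ALCL values did. NCAM1 rose by 0.53 ± 0.13 in T-cell lines (adjusted p = 0.00988, and 0.0586 without Molt-3), while spike centring gave -0.16. Its change in ALCL lines was 0.12 ± 0.13 (adjusted p = 0.501). A further NCAM1 probe set gave a larger change. It read 7.71, 8.39, 7.21 and 7.11 in treated T-cell lines, against 6.03, 5.90, 5.91 and 5.88 in untreated T-cell lines. Its ALCL readings were 6.25, 6.61, 6.47 and 6.02 in treated ALCL lines, against 6.22, 6.14, 6.01 and 6.07 in untreated ALCL lines. It rose by 1.68 ± 0.20 in T-cell lines (adjusted p = 0.000503 over all probe sets) and changed by 0.23 ± 0.20 in ALCL lines. This was the 1 of 57 probe sets of the 34 genes called for the difference between cell types (-1.45 ± 0.29, adjusted p = 0.0423), and that call held only without Jurkat (0.0436), with an adjusted p of 0.0664 to 0.1 when any other line was left out. Of 10 measured natural killer genes, 4 were higher in T-cell lines and 1 in ALCL lines, against 21.7% and 8.04% of all genes. The 4 became 1 without Molt-3 or Molt-4 and 0 with spike centring, and whether NCAM1 moved with them was not tested.

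Of the 5 remaining genes (the RNA-binding proteins ELAVL3 and ELAVL4, the deubiquitinase UCHL1, BEX1 and the reticulon RTN1), 2 were higher in T-cell lines and 1 in ALCL lines. Shares of all genes called higher were again 21.7% and 8.04%. UCHL1 is among the most abundant proteins of neurons. It measured 7.88, 7.24, 7.87 and 6.60 in treated ALCL lines, against 6.37, 6.09, 6.09 and 6.02 in untreated ALCL lines. Readings of T-cell lines were 7.89, 7.76, 6.74 and 6.55 in treated T-cell lines, against 5.84, 5.92, 5.74 and 6.09 in untreated T-cell lines. No treated value overlapped an untreated one within a cell type, with Karpas 299 and Molt-4 changing least. UCHL1 rose by 1.26 ± 0.27 in ALCL lines (adjusted p = 0.00909) and 1.34 ± 0.27 in T-cell lines (adjusted p = 0.00425), calls that held without each line but not with spike centring (adjusted p of 0.337 and 0.29). ELAVL4 measured 6.38, 5.96, 6.57 and 6.53 in treated T-cell lines, against 6.12, 5.50, 6.00 and 6.07 in untreated T-cell lines. It rose by 0.44 ± 0.14 there (adjusted p = 0.0339), lost without Jurkat, Molt-3 or Molt-4 (adjusted p of 0.0847 to 0.131), and spike centring gave -0.24. ELAVL4 measured 6.04, 6.35, 6.44 and 6.08 in treated ALCL lines, against 6.21, 5.79, 6.03 and 6.10 in untreated ALCL lines, a change of 0.20 ± 0.14 that was not called.

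BEX1, a small protein of the brain-expressed X-linked family, was high in Jurkat, Molt-3 and Molt-4 and lower on the treated array of each. It measured 7.42, 10.82, 9.60 and 9.27 in treated T-cell lines, against 6.43, 11.11, 11.42 and 11.35 in untreated T-cell lines. Its ALCL values were 6.76, 6.57, 7.05 and 6.76 in treated ALCL lines, against 6.46, 6.29, 6.73 and 6.44 in untreated ALCL lines. Untreated Jurkat, Molt-3 and Molt-4 stood above 11, while CCRF-CEM lay with the ALCL lines. On treatment BEX1 changed by -0.29, -1.81 and -2.08 in Jurkat, Molt-3 and Molt-4 and by 0.99 in CCRF-CEM. The mean change in T-cell lines, -0.80 ± 0.40, was not called (adjusted p = 0.13). It was called lower without CCRF-CEM (-1.40, adjusted p = 0.00774) and with spike centring (-1.48, adjusted p = 0.00375). In ALCL lines all 4 changes lay between 0.29 and 0.32, which was not called (adjusted p = 0.598).

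Between the cell types, 0 neuronal genes differed before treatment, against 3.18% of all genes called higher and 5.58% called lower in ALCL lines. At an unadjusted p below 0.05, limma found 3 higher (GAP43, STX1A and SYP) and 1 lower (BEX1), and with a robust trended prior it called 0. The unadjusted counts were 8.8% and 2.9% of the list, against 10.3% and 14.7% of all genes. The list's median difference, ALCL minus T-cell, was 0.12, beside 0.04 for all genes. The BEX1 difference was -3.60 ± 1.05 (adjusted p = 0.0735), and without CCRF-CEM it was -4.81 (adjusted p = 1.79e-05). After treatment, 0 neuronal genes were higher and 1 was lower in ALCL lines, against 1.35% and 1.53% of all genes. At an unadjusted p below 0.05, 2 were higher and 3 lower (5.9% and 8.8%), against 6.95% and 8.92% of all genes. The 1 gene called after adjustment was INA, at -1.02 ± 0.16 (adjusted p = 0.0103, and 0.831 with spike centring). BEX1 differed by -2.49 ± 0.58 (adjusted p = 0.0574, and 0.00567 without CCRF-CEM). NEFH differed by -0.71 ± 0.18 (adjusted p = 0.0798), again with no overlap. The treatment effect itself was called as different between cell types for 0 of 34 genes in either direction, against 1.11% of all genes with a higher and 0.568% with a lower effect in ALCL lines. At an unadjusted p below 0.05, 1 effect was higher in ALCL lines (NPTX2) and 3 were lower (INA, NCAM1 and STX1A). That is 2.9% and 8.8% of the list, against 7.44% and 5.53% of all genes. The genes called in 1 cell type alone, 10 in T-cell and 2 in ALCL lines, were therefore not shown to respond differently. Another 8 were called in both (CHGA, DPYSL3, INA, MAPT, NPTX2, STX1A, SYT1 and UCHL1).

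Genes with several probe sets allowed a second reading. The 14 such genes had 23 unused probe sets, of which 12 were higher in T-cell lines and 2 in ALCL lines, and 0 were lower in either. Of all genes, 21.7% were higher in T-cell and 8.04% in ALCL lines, and 2 of 23 lay close to the latter share. For genes called through the probe set used, 10 of 10 other probe sets in T-cell lines and 5 of 5 in ALCL lines changed upwards in the deposited values, and 5 and 1 of these were called. The called unused probe sets in T-cell lines also came from genes not called through the one used, namely GRIN1 (3), SNAP25, GAP43, NEFL and DLG4 (1 each). For 2 called genes the second probe set changed little and was not called, with T-cell changes of 0.11 ± 0.11 for STMN2 and 0.10 ± 0.10 for SYT1.

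RefSeq promoter windows, 250 bases before to 50 after the annotated start, were listed for 22 of the 34 genes. The 13 that rose in either cell type held a median of 35 CpG, against 7 in the 9 called in neither and 24 in 9562 genes tested. A CpG content of at least 0.6 of that expected from base composition was found in 10 of the 13 (76.9%), in 3 of the 9 (33.3%) and in 72.0% of genes tested. Among neuronal genes at or above 0.6, 9 of 13 (69.2%) rose in T-cell lines and 7 (53.8%) in ALCL lines. Below it, 3 of 9 (33.3%) and 1 of 9 (11.1%) did. Over all genes the order was the other way in T-cell lines, with 17.9% called higher at or above 0.6 and 28.7% below it, while in ALCL lines the shares were 8.47% and 7.13%. Of the promoters shown above, those of NPTX2 and UCHL1, which rose, were CpG-dense, and that of RTN1, called in neither cell type, was the poorest of the 22. BEX1, also shown above, was dense at 0.77 and was not called, and so was SYP, at 0.92. The split by outcome was made with the calls known, so it is a description without a test.

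**Figure D4:**
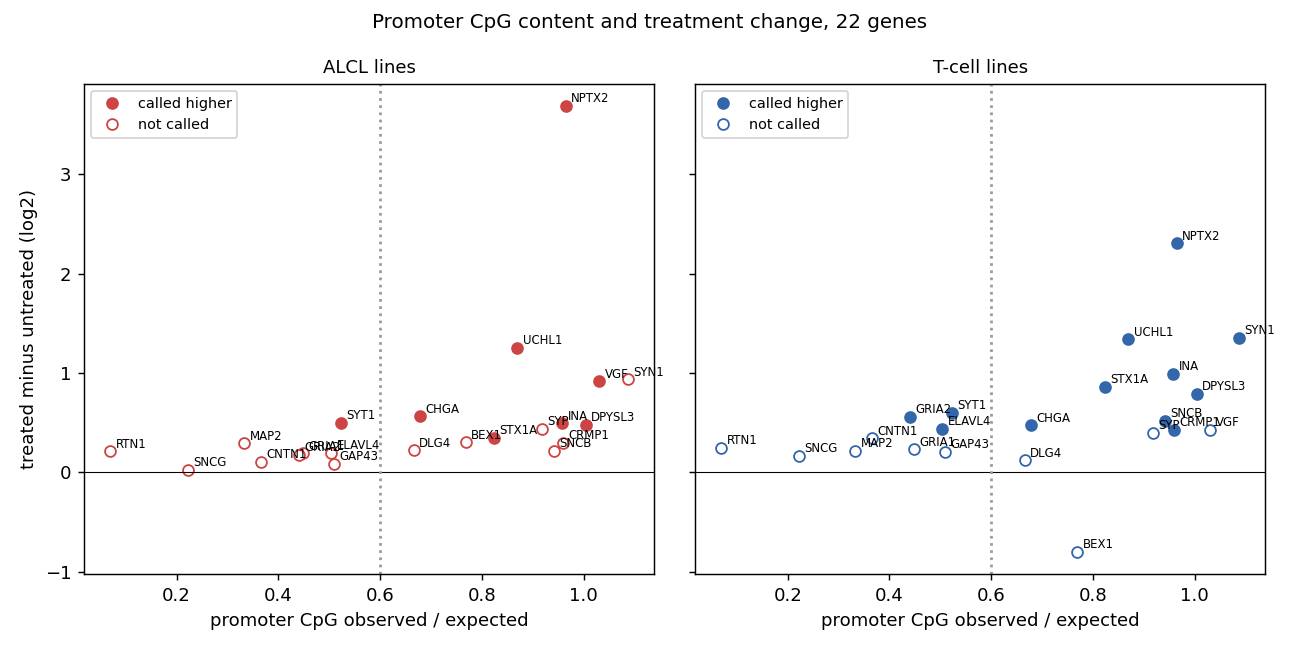
Change on treatment (log2, y) against the CpG content of the promoter window relative to expectation (x, a ratio without unit) for 22 neuronal genes, in ALCL lines (left) and T-cell lines (right), with filled points called higher and a dotted line at 0.6. Called genes lie mostly right of the dotted line, 7 of 8 in ALCL lines and 9 of 12 in T-cell lines, in the values as deposited; with spike centring 1 gene in each cell type is called.

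Letter motifs of known regulators were searched on both strands of the same windows. The cAMP response element TGACGTCA occurred in SYN1, CHGA and VGF, that is in 3 of 22 neuronal windows (13.6%), against 3.06% of genes tested and 1.98% of all 27305 windows. These windows are printed because each of the 3 genes rose in a cell type and carries the element close to its start (40 bases, the element in capitals, GRCh38.p14, on the gene's strand). The element lies 159 to 152 bases before the start of SYN1 (chrX:47619993-47620032, minus strand), 54 to 47 before that of CHGA (chr14:92923080-92923119, plus strand) and 79 to 72 before that of VGF (chr7:101165625-101165664, minus strand).
SYN1: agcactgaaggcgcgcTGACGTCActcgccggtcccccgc
CHGA: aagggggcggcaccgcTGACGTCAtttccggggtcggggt
VGF: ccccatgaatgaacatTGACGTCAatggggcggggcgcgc
The GC box GGGCGG, which Sp1 binds, was in 11 of 22 windows and in 63.1% of genes tested. CAGCACC and GGACAGC, letters from the left and right parts of the REST element, were in 1 and 2 of 22 windows (4.55% and 9.09%), against 7.48% and 6.65% of genes tested. A match is only a run of letters and no evidence of binding, and the REST element often lies outside such windows.

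Genes of the REST complex were called in both directions. Of 20 measured of 24 listed, 3 were higher and 8 lower in T-cell lines (median -0.31), and 2 were higher and 5 lower in ALCL lines (median -0.31), where 20.2% and 13.4% of all genes were lower in T-cell and in ALCL lines. Quantile normalization took the T-cell median to 0.00 with 4 genes higher and 4 lower, and leaving out a line gave 3 to 9 lower in T-cell and 0 to 7 in ALCL lines. REST itself changed by 0.35 ± 0.21 in T-cell lines (adjusted p = 0.196) and 0.23 ± 0.21 in ALCL lines (adjusted p = 0.451), and its partner RCOR1 by 0.43 ± 0.28 (adjusted p = 0.224) and 0.06 ± 0.28 (adjusted p = 0.881). EHMT2, a histone H3 lysine methyltransferase, fell by 0.92 in T-cell lines (adjusted p = 0.000832) and by 0.63 in ALCL lines (adjusted p = 0.00935, and 0.051 without SU-DHL-1). In T-cell lines USP7, a deubiquitinase, fell by 1.52 (adjusted p = 0.00153) and SMARCA4, a chromatin remodelling ATPase, by 1.28 (adjusted p = 0.0041). In untreated cells RCOR1 was lower in ALCL than in T-cell lines (-0.63 ± 0.14, adjusted p = 0.0304), a call lost without JB6, CCRF-CEM, Jurkat, Molt-3 or Molt-4 (adjusted p of 0.0598 to 0.0974).

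A second list of 72 neuronal genes outside the 34, of which 58 were measured, had 29 higher and 1 lower in T-cell lines and 9 higher and 1 lower in ALCL lines. Of all genes, 21.7% were called higher and 20.2% lower in T-cell lines, and 8.04% higher and 13.4% lower in ALCL lines. The medians of this second list were 0.44 and 0.23, and with spike centring -0.24 and -0.38. Leaving out a line gave 15 to 31 higher in T-cell and 3 to 10 in ALCL lines. TUBB2A, a beta-tubulin, rose by 3.24 ± 0.28 in T-cell lines (adjusted p = 8.24e-05) and 2.65 ± 0.28 in ALCL lines (adjusted p = 0.00033), more than any of the 34 genes in T-cell lines and more than all but NPTX2 in ALCL lines. TUBB4A, another beta-tubulin, rose by 1.61 and 1.38 in the same order, SYT11, a synaptotagmin, by 1.50 and 1.13, and SLC17A7, a vesicular glutamate transporter, by 1.08 and 0.71. Of these 4, TUBB2A was the only one still called with spike centring in both cell types, and SLC17A7 in ALCL lines was also lost without SU-DHL-1 (adjusted p = 0.0515) or JB6 (0.05). Of 23 neurogenic transcription factors and their inhibitors, 8 were higher and 1 lower in T-cell lines, against 21.7% and 20.2% of all genes, and limma called 0 in ALCL lines (3 higher with the mean of probe sets). The 8 became 4 without Molt-3 and 3 without Molt-4, and spike centring gave 2 higher and 3 lower. ID2 and ID1, inhibitors of proneural helix-loop-helix factors, rose by 4.11 ± 0.66 (adjusted p = 0.00134) and 2.34 ± 0.37 (adjusted p = 0.00132) in T-cell lines, and POU4F1, a factor of sensory neurons, by 1.08 ± 0.25 (adjusted p = 0.00847, and 0.534 with spike centring). Genes of other lineages were counted in the same way. Of 18 glial genes, 6 were higher in T-cell lines and 1 in ALCL lines, and of 11 B-cell and myeloid genes 2 and 0, against 21.7% and 8.04% of all genes, with 0 lower in either list. Without Molt-3 or Molt-4 both lists had 0 higher in T-cell lines, and without Jurkat the glial list had 0. The glial median was 0.26 in T-cell and 0.17 in ALCL lines, and -0.42 and -0.44 with spike centring. In T-cell lines 11 of 18 T-cell genes were lower and 0 higher, against 20.2% and 21.7% of all genes.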

How the data were processed

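Gene expression was measured on Affymetrix HG-U133A arrays in total RNA of 8 cell lines, untreated and treated, 16 arrays in all. The authors deposited log2 values per probe set. Per the submitters' processing notes they used RMA (robust multi-array average) and R version 2.10.1. Whether all arrays were normalized together is not given in the sources used here, and no detection calls were used, so nothing is said on which genes were above background. Of 22283 probe sets, 19065 had 1 gene symbol in the platform annotation, 1043 had several and were left out, and 2107 had none listed. This gave 11963 genes. Array data have no read depth, and the number of arrays limits the precision.

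Differences were tested with limma (version 3.58.1, functions lmFit and eBayes, R version 4.3.3). Tests were two-sided, and p values were adjusted by Benjamini and Hochberg's method across all 11963 genes. Values after ± beside a difference are its standard error from the fit. Treatment effects and their difference between cell types came from 1 fit of 16 arrays that held cell line as a block (6 residual degrees of freedom), and cell types were compared on 8 arrays each. Lines pair the arrays by the labels. Deviations from the group means, taken over genes, correlated between a line's treated and untreated arrays at 0.33 to 0.64, and Molt-4 correlated better with Molt-3 (0.40) than with itself (0.33). Each line was counted as 1 replicate, but the labels name no donor, so whether any lines share one is not given. An n of 4 thus counts lines and need not be 4 independent donors. The scripts were tested on simulated data. Promoter windows and gene coordinates are RefSeq, GRCh38.p14. The 34 genes and all gene lists were chosen with earlier results of these data known. All 34 may be named, with per-array values for those called and NCAM1 (those of BEX1, called in none of these comparisons, were added after they were seen), and of other lists up to 4 genes with the smallest adjusted p in a comparison, plus REST and RCOR1. A different probe set, a filter on the lowest 40% of genes, 3 other scalings, no line block, 1 cell type alone, a robust trended prior and leaving out each line were the alternatives.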

Additional observations from a re-analysis of the deposited data

Results flagged for a closer look

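A value was picked out where the highest or lowest of 4 arrays, or of 4 changes, stood apart from the other 3 by more, as a share of the range, than Dixon's critical value for 4 values allows. This happened in 13 of 204 groups of values (6.37%), where chance gives about 1 in 20, so single cases carry little weight. No neuronal gene had effects that differed between the cell types by the test of that difference.

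JB6 held 6 of the 13. NPTX2 changed by 2.09 in JB6, against 3.98 to 4.35 in the other ALCL lines, and its treated JB6 level was 7.79, against 9.65 to 10.02. The RNA-binding protein ELAVL3 stood at 9.57 in treated and 8.95 in untreated JB6, where the other ALCL lines reached 7.49 and 7.47. GRIN1 stood at 8.44 in treated and 8.24 in untreated JB6, where the others reached 7.32 and 7.36, on the probe set used, while on 3 of its 4 other probe sets JB6 was the lowest ALCL line in both conditions. SU-DHL-1 stood apart before treatment in 3 genes, with STX1A at 8.50 (others 7.56 to 7.66), CHGB at 5.84 (others 6.49 to 6.54) and CRMP1 at 7.45 (others 7.80 to 7.81). Jurkat stood apart in SCG2 after treatment, at 7.17 (others 5.67 to 5.83), and in NEFL before it, at 5.85 (others 5.44 to 5.50). Untreated BEX1 was 6.43 in CCRF-CEM and 11.11 to 11.42 in the other T-cell lines. SYT1 changed by 1.02 in Molt-4 and by 0.40 to 0.50 in the other T-cell lines.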

How the results depend on the processing

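The rise of the list depended most on the scaling. Spike centring left 1 gene higher (NPTX2) and 1 lower (BEX1) in T-cell lines (median -0.25), and 1 higher in ALCL lines (NPTX2, median -0.30). It gave 1 higher and 1 lower between untreated cell types (median 0.46, and 0.44 between treated ones). It turned the T-cell changes of STMN2 (-0.13), SYT1 (-0.081), CHGA (-0.21), MAPT (-0.19), GRIA2 (-0.12), NCAM1 (-0.16), NPTX1 (-0.31), ELAVL4 (-0.24), SNCB (-0.16) and CRMP1 (-0.25), and the ALCL changes of SYT1 (-0.10), INA (-0.11), CHGA (-0.04), MAPT (-0.18), STX1A (-0.26) and DPYSL3 (-0.12). Centring on the 75th percentile gave 31 higher in T-cell lines (median 0.66), with the median of all genes at 0.37 there and 0.23 in ALCL lines, and quantile normalization gave 10 (median 0.32). Quantile normalization ended the T-cell calls of STMN2 (adjusted p = 0.129), SYT1 (0.0548), CHGA (0.179), SCG2 (0.0825), NCAM1 (0.0554), NPTX1 (0.276), ELAVL4 (0.165) and SNCB (0.0843). In ALCL lines it ended those of SYT1 (0.0975) and CHGA (0.0563). After removal of the lowest 40% of genes, 13 of the 34 were left, of which 6 were higher in T-cell and 4 in ALCL lines, and untreated and treated cell types differed by medians of 0.33 and 0.21, with 1 and 2 genes lower. Without the line block 3 were higher in ALCL lines, and with ALCL lines alone 6. Between treated cell types 2 were lower under quantile normalization, 75th percentile centring and the robust trended prior, and the median was -0.15 in lines without the 28S rise. Leaving out each line gave 9 to 21 higher and 0 to 1 lower in T-cell lines, 5 to 10 higher in ALCL lines, 0 to 1 with a higher effect in ALCL lines, 0 to 1 higher and 0 to 1 lower between untreated and 0 to 1 higher and 1 to 2 lower between treated cell types. The lines behind these extremes were Molt-3 and Molt-4, CCRF-CEM (BEX1 lower), JB6 and SU-DHL-1, JB6 (NPTX2), SU-DHL-1, CCRF-CEM, Karpas 299, and FE-PD or CCRF-CEM. Of 115 fits of unused probe sets, 9 lost and 9 gained a call and 0 reversed one. Calls in T-cell lines that fell only with spike centring, or never, numbered 6: NEFH (not called on its other probe set), INA, UCHL1, STX1A, NPTX2 and DPYSL3. In ALCL lines they numbered 3 (CHGB, UCHL1 and NPTX2). The cause of these shifts was not tested.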
